A study of Mus musculus with 6 samples.

Results

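The genes described here are 33 genes of the endoplasmic reticulum (ER) that fold, import or remove secretory proteins, or that sense and answer their misfolding, a programme called the unfolded protein response. They were chosen by name, from current symbols or synonyms, with earlier results of these data known. Each was read through its brightest probe on Illumina mouse bead arrays. All 33 have a named probe among 20289 named genes on the array, and 32 have one above background on at least 2 of the 6 arrays, among 12093 genes tested. The lectin chaperone Canx is the member left untested, with deposited intensities of 6.2 and 2.5 in Th9, -1.7 and -4.0 in Th17, and 7.7 and -4.0 in Th1.

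The RNA came from 3 kinds of mouse CD4 T helper cell, Th9, Th17 and Th1, with 2 arrays of each kind. Th9, Th17 and Th1 cells are the helper subsets named for interleukin 9, interleukin 17 and the type 1, interferon gamma response. Per the labels, CD45.1+CD4+ cells were sorted from the spleens of C57BL/6 mice bearing a tumour, 12 days after the cells were transferred, so every kind shares the transfer, the tumour-bearing host and the sort. How the kinds were made before transfer, which tumour was used and how many mice stand behind an array are not given in the sources used here.

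Secretory and membrane proteins are folded in the ER, where BiP, the product of Hspa5, holds unfolded chains and keeps 3 membrane sensors silent. When unfolded protein builds up, IRE1 (Ern1) splices the Xbp1 messenger RNA so that it encodes an active transcription factor, PERK (Eif2ak3) slows translation while letting ATF4 be made, and ATF6 is cut to release a transcription factor. XBP1 and ATF6 act on genes of chaperones, of protein import and of degradation, and ATF4 on genes of amino acid supply and of stress-induced death. In lymphocytes the pathway is best known from plasma cells, which need XBP1 to secrete antibody, and it is also active in stimulated T cells. The deposited values do not tell the spliced and unspliced forms of Xbp1 apart, so they carry no reading of IRE1 activity.

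A known DNA element of this response, the ER stress response element, is read here as CCAAT, any 9 bases, then CCACG, on either strand. RefSeq promoter windows of build GRCm38.p6, from 250 bases before to 50 bases after the annotated start, were given for 28 of the 33 members. Of these, 8 (28.6%) hold the element, against 37 of all 27025 genes with a window (0.137%), these 8 included. The members were chosen for the response that the element is known from, so these shares are a description and no test. They are Hspa5, Hsp90b1, Creld2, Calr, Syvn1, Pdia6, Dnajc3 and Canx. The first 5 are among the 9 members that were higher in Th9 than in either other kind, described further on. The other members with a window hold it in 3 of 19 cases, and a link between the element and the levels was not tested. Pdia6 and Dnajc3 carry the same element and did not pass the test. The stretches of 7 of the 8 genes are shown because they set the letters of genes higher on the Th9 arrays beside those of Pdia6 and Dnajc3. Each runs 5′ to 3′ along the gene's strand and the capitals mark the element, which reads as CGTGG, 9 bases, ATTGG where it lies on the opposite strand.
Hspa5 (chr2:34771995-34772073, + strand): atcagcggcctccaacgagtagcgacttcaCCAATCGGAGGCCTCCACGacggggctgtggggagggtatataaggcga
Hsp90b1, nearer element (chr10:86705503-86705581, - strand): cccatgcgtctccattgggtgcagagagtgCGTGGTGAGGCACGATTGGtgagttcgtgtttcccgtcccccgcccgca
Hsp90b1, farther element (chr10:86705608-86705686, - strand): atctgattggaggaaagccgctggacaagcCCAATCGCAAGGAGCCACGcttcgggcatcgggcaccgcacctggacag
Creld2 (chr15:88819490-88819568, + strand): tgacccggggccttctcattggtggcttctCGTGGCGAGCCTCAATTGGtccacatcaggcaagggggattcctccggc
Calr (chr8:84847045-84847123, - strand): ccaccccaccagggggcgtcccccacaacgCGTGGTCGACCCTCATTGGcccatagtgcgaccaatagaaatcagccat
Syvn1 (chr19:6046502-6046575, + strand): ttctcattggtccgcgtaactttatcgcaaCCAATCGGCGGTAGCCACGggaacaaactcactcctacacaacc
Pdia6 (chr12:17266461-17266539, + strand): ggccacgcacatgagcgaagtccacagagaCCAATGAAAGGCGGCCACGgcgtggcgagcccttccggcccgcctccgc
Dnajc3 (chr14:118937797-118937875, + strand): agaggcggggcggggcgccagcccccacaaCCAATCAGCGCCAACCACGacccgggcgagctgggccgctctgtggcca

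The element starts 65 bases before the Hspa5 start and 44 before that of Syvn1, while those of Hsp90b1 start 107 and 212 bases before. A shorter form, ATTGG, 1 base, CCACG, was found in 12 genes in all (0.0444% of 27025) and in 2 of the 28 members, Dnajb11 and Herpud1. Another XBP1 and ATF6 element, TGACGTGG, was found in 193 genes (0.714%) and in 0 of the 28 members. A match describes letters, not binding, and the factor's presence there was not measured.

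The kinds were compared on the log2 scale in 1 linear model over all 6 arrays (limma, Benjamini-Hochberg adjustment over the 12093 genes, threshold 0.05). Other kept probes of a gene were read from a second such fit, adjusted over all 18614 kept named probes. Fold changes are log2 differences of background-corrected intensities. The correction added an offset of 50, so the change of a dim gene comes out too small. They are given ± standard error with n = 2 arrays of each kind. Of the 2 arrays of a kind, 1 is labelled only as a repeat and no separate animals or cultures are named. The p-values therefore measure spread between arrays, possibly for technical reasons alone. That spread was pooled largely over all genes (3 residual and 16.2 prior degrees of freedom). A standard error is thus not that of a gene's own arrays alone. A member counted as tested was above background on at least 2 arrays. Of the 32 tested, 28 were above background on all 6 arrays, and Hyou1, Eif2ak3, Atf6 and Chac1 were not. The T cell markers Cd3d, Cd3e, Cd3g, Cd4 and Thy1 were above background on every array. Il9 was above background on 0 arrays, with values of 4.1 and 3.0 on the Th9 arrays and at most 1.8 elsewhere. Ifng was at 6.1 and 5.0 in Th9, 7.2 and 0.9 in Th17, and 27.5 and 22.1 in Th1, highest in the kind it defines. Il17a was at 7.8 and 3.4 in Th9, -0.3 and 8.6 in Th17, and 3.1 and 11.2 in Th1, and did not set the Th17 arrays apart. Mean intensity per array lay between 117.1 and 171.1, and 41.0 to 45.2% of probes were above background.

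The Th9 arrays read higher than those of either other kind for a group of the folding genes. In Th9 against Th1, 11 of the 32 tested members were higher and 1 was lower, where 5.85% of all genes tested were higher and 4.85% lower (10.7% in all). The members' median log2 fold change was 0.22, against 0.012 over all genes. In Th9 against Th17, 14 members were higher and 1 was lower, where 10% of all genes were higher and 8.95% lower (19% in all), and the members' median was 0.23 against 0.006. In Th17 against Th1 the members were split, with 3 higher and 4 lower, against 7.53 and 7.42% of all genes (14.9% in all), and their median was 0.04 against 0.004. Of the 28 members above background on every array, the higher and lower counts were 11 and 0, 13 and 1, and 3 and 3 in the same order of comparisons. Both Th9 arrays lay above both Th1 arrays in 19 of the 32 tested members (25.9% of all genes). They lay above both Th17 arrays in 19 (29% of all genes). The list was chosen with earlier results of these data known, so its contrast with all genes is a description and no test. In bulk RNA, more cells expressing a gene and more RNA per cell cannot be told apart. Nor can RNA from other cells in a sorted sample be told apart from that of the T cells. Markers of B and plasma cells, given further on, were also read on these arrays, and their part was not tested.

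The scaling of the arrays bears on these counts. With arrays scaled to their median instead of quantile normalized, 15 members were higher and 1 lower in Th9 against Th1, 5 higher and 1 lower in Th9 against Th17, and 9 higher and 0 lower in Th17 against Th1 (limma). That scaling moved the median of all genes to 0.14 in Th9 against Th1 and 0.15 in Th17 against Th1, and turned the split of all called genes to 1543 higher and 186 lower in the first of these and 2488 higher and 245 lower in the other, against 708 and 587, and 910 and 897. Relative to the median of all genes, the members' median was then 0.26 in Th9 against Th1, 0.20 in Th9 against Th17 and 0.12 in Th17 against Th1, and with quantile normalization 0.21, 0.22 and 0.03. The setting called without background correction left out the correction applied here and its offset, and set deposited values below 1 to 1. The deposited values themselves fall below 0 on every array, as after background subtraction. Of the 34 calls made on members, 4 held in that setting: Xbp1 and Eif2ak3 in Th9 against Th1, and Trib3 in Th9 against Th17 and in Th17 against Th1.

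**Figure D1:**
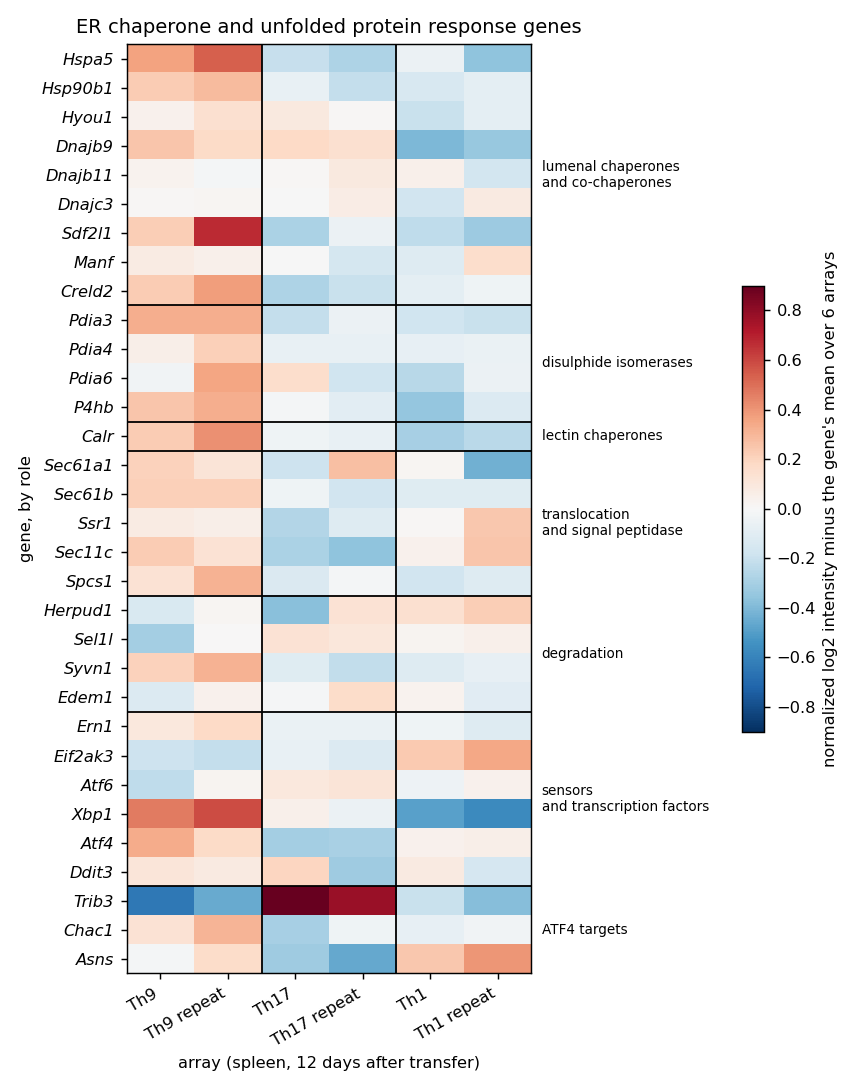
Heat map of the normalized log2 level of the 32 tested members (rows, grouped by role) on each of the 6 arrays (columns: Th9, Th17, Th1), drawn as the difference from the gene's mean over the arrays, with colours held constant past the ends of the scale. Hspa5, Hsp90b1, Sdf2l1, Creld2, Pdia3, P4hb, Calr, Syvn1 and Xbp1 are highest on both Th9 arrays, and Trib3 on both Th17 arrays.

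Xbp1, the transcription factor whose messenger RNA is spliced by IRE1, separated all 3 kinds. Its deposited intensities were 3061.4 and 3743.7 in Th9, 2861.9 and 2424.3 in Th17, and 1565.3 and 1222.6 in Th1, and its normalized log2 levels were 11.69 and 11.81, 11.27 and 11.17, and 10.74 and 10.65 in the same kinds. The kinds did not overlap, with Th9 highest, Th17 between and Th1 lowest. Xbp1 was higher in Th9 than in Th1 by 1.06 ± 0.11 (2.08-fold, adjusted p = 7.27e-07) and higher in Th9 than in Th17 by 0.53 ± 0.11 (adjusted p = 0.00138). It was also higher in Th17 than in Th1, by 0.53 ± 0.11 (adjusted p = 0.00192). The call against Th1 held in 14 of 14 alternatives, with adjusted p up to 0.0485, while the call against Th17 ended without background correction and with median scaling (adjusted p up to 0.138).

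Of the 3 sensors, Eif2ak3 and Atf6 were read close to background and Ern1 was above it on all 6 arrays. Eif2ak3, which encodes PERK, had intensities of 6.2 and 5.6 in Th9, 13.6 and 9.1 in Th17, and 24.7 and 25.5 in Th1. It was not above background on either Th9 array, and Th1 was the highest kind. Eif2ak3 was at least 1.39-fold lower in Th9 than in Th1 (fitted log2 fold change -0.49 ± 0.11, adjusted p = 0.00414), counted from the lowest signal above background, and this call held in 14 of 14 alternatives. It was also lower in Th17 than in Th1, by -0.39 ± 0.11 on the log2 scale (adjusted p = 0.0182). That call ended without the Th1 repeat or either Th17 array, with median scaling and without background correction. Ern1, which encodes IRE1, had levels of 6.67 and 6.76 in Th9, 6.51 and 6.52 in Th17, and 6.53 and 6.46 in Th1, with both Th9 arrays above the others, but did not pass the test (0.22 ± 0.11 against Th1, adjusted p = 0.255, and 0.20 ± 0.11 against Th17, adjusted p = 0.242). Atf6 was above background on 1 Th9, 2 Th17 and 0 Th1 arrays and passed in none of the comparisons. Atf4, the factor downstream of PERK, had levels of 10.42 and 10.26 in Th9, 9.78 and 9.79 in Th17, and 10.13 and 10.14 in Th1. In these normalized levels Th17 was lowest without overlap. The deposited intensities of Atf4 overlapped, at 962.1 and 900.0 in Th17 and 1002.3 and 824.0 in Th1. Atf4 was higher in Th9 than in Th17 by 0.55 ± 0.11 (adjusted p = 0.000899) and lower in Th17 than in Th1 by -0.35 ± 0.11 (adjusted p = 0.0362). The latter call also ended with median scaling, with an offset of 16 and without background correction. Over the alternatives that change was as small as -0.008. The Th17 against Th1 call of Atf4 ended when any of the Th17 or Th1 arrays was left out, and another kept probe of Atf4 gave -0.04 (adjusted p = 0.893) there and 0.42 (adjusted p = 0.0243) in Th9 against Th17. Ddit3, which encodes the death-associated factor CHOP, had levels of 7.59 and 7.57 in Th9, 7.68 and 7.16 in Th17, and 7.57 and 7.34 in Th1. It passed in none of the comparisons, and its Th17 arrays lay on either side of the rest.

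Among the 9 lumenal chaperones and co-chaperones, 5 were higher in Th9 than in Th1, 4 were higher in Th9 than in Th17 and 1 was higher in Th17 than in Th1, where 5.85, 10 and 7.53% of all genes were higher. Hspa5, which encodes BiP, had levels of 7.45 and 7.63 in Th9, 6.89 and 6.82 in Th17, and 7.04 and 6.73 in Th1. Both Th9 arrays lay above the 4 others, which overlapped between Th17 and Th1. Hspa5 was higher in Th9 by 0.66 ± 0.12 against Th1 (adjusted p = 0.000738) and by 0.69 ± 0.12 against Th17 (adjusted p = 0.000263). Sdf2l1, a partner of BiP in its complexes with J-domain proteins, had levels of 8.26 and 8.70 in Th9, 7.75 and 7.98 in Th17, and 7.80 and 7.70 in Th1. It was higher in Th9 by 0.72 ± 0.13 against Th1 (adjusted p = 0.000817) and by 0.62 ± 0.13 against Th17 (adjusted p = 0.0022), its Th9 arrays differing more from each other than those of Hspa5. Creld2, an ER-resident protein with disulphide isomerase activity, had levels of 8.32 and 8.46 in Th9, 7.81 and 7.89 in Th17, and 8.0 and 8.05 in Th1. The Th9 arrays of Creld2 were highest and the Th17 arrays lowest, and Th9 was higher by 0.37 ± 0.11 against Th1 (adjusted p = 0.0347) and by 0.54 ± 0.11 against Th17 (adjusted p = 0.0011). The other kept probe of Creld2 gave 0.28 against Th1 (adjusted p = 0.144) and 0.47 against Th17 (adjusted p = 0.00578). Hsp90b1, the ER form of HSP90 also called GRP94, had levels of 11.20 and 11.25 in Th9, 10.90 and 10.76 in Th17, and 10.83 and 10.88 in Th1, with Th9 above the others. Its differences were 0.37 ± 0.11 against Th1 (adjusted p = 0.0313) and 0.40 ± 0.11 against Th17 (adjusted p = 0.0126).

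Dnajb9, a J-domain partner of BiP that is also called ERdj4, followed another pattern, with Th1 apart from both other kinds. Its levels were 8.02 and 7.94 in Th9, 7.94 and 7.91 in Th17, and 7.36 and 7.42 in Th1. Dnajb9 was higher in Th9 than in Th1 by 0.58 ± 0.11 (adjusted p = 0.000763) and higher in Th17 than in Th1 by 0.53 ± 0.11 (adjusted p = 0.0015), while Th9 and Th17 differed by 0.05 ± 0.11 (adjusted p = 0.833). Another kept probe of Dnajb9 did not pass, at 0.11 in Th9 against Th1 and 0.20 in Th17 against Th1. The J-domain proteins Dnajb11 and Dnajc3, both BiP partners, and Manf, a secreted ER stress protein, passed in none of the comparisons. Their log2 fold changes lay between -0.10 and 0.14. Hyou1, the large chaperone that helps BiP release nucleotide, was above background in Th9 and Th17 but on 0 Th1 arrays, and did not pass (0.23 ± 0.11 against Th1, adjusted p = 0.215). The Hspa5 calls held in 13 of 14 alternatives. Those of Creld2 against Th1 ended when any 1 of the 6 arrays was left out, those of Hsp90b1 without either Th9 array, either Th1 array (against Th1) or the Th17 repeat (against Th17), and that of Sdf2l1 against Th17 without the Th9 repeat or the Th17 first array.

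**Figure D2:**
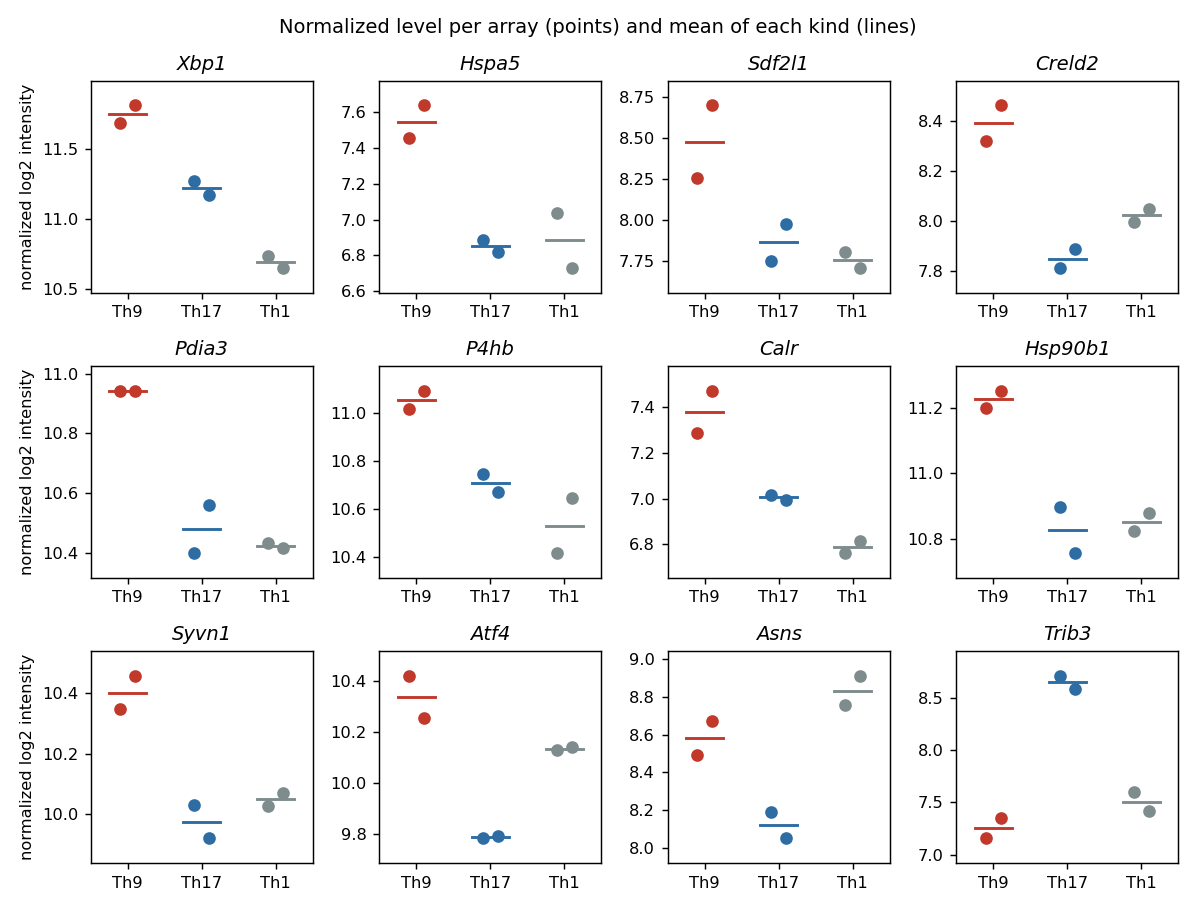
Normalized log2 level of 12 members, 1 panel each, with a point for each array and a line at the mean of each kind (Th9, Th17, Th1 from left to right, n = 2 arrays each). Xbp1 steps down over the 3 kinds, Hspa5, Sdf2l1 and Pdia3 are high in Th9 alone among the kinds, and Trib3 is high in Th17, opposite to Atf4 and Asns.

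Of the 4 disulphide isomerases, which form and rearrange disulphide bonds in folding proteins, 2 were higher in Th9 than in Th1 and 2 in Th9 than in Th17, and the same genes, Pdia3 and P4hb, made both counts (5.85 and 10% of all genes). In Th17 against Th1, 0 passed, and 0 also at an unadjusted limma p below 0.05. Pdia3, which works with the lectin chaperones on glycoproteins, had levels of 10.94 and 10.94 in Th9, 10.40 and 10.56 in Th17, and 10.43 and 10.42 in Th1. The Th9 arrays of Pdia3 stood above all others, by 0.52 ± 0.11 against Th1 (adjusted p = 0.00277) and by 0.46 ± 0.11 against Th17 (adjusted p = 0.00418). P4hb, which encodes protein disulphide isomerase itself, had levels of 11.02 and 11.09 in Th9, 10.75 and 10.67 in Th17, and 10.41 and 10.64 in Th1. P4hb was higher in Th9 by 0.53 ± 0.11 against Th1 (adjusted p = 0.00339) and by 0.34 ± 0.11 against Th17 (adjusted p = 0.0379). Pdia4 and Pdia6 did not pass in any comparison, at 0.20 ± 0.11 and 0.31 ± 0.14 against Th1 and 0.20 and 0.17 against Th17. The arrays of Th9 all lay above those of Th1 in both genes. The other kept probe of Pdia6 gave 0.40 against Th1 (adjusted p = 0.0527). With the mean of all kept probes, Pdia6 passed against Th1 (limma, adjusted p = 0.026). Calr, the lectin chaperone calreticulin that holds glycoproteins and calcium, had levels of 7.29 and 7.47 in Th9, 7.02 and 6.99 in Th17, and 6.76 and 6.82 in Th1. The 3 kinds did not overlap for Calr, which was higher in Th9 by 0.59 ± 0.11 against Th1 (adjusted p = 0.000873) and by 0.37 ± 0.11 against Th17 (adjusted p = 0.02), while Th17 against Th1, at 0.22 ± 0.11, did not pass (adjusted p = 0.226). The P4hb call against Th17 ended when any Th9 or Th17 array was left out and that against Th1 without the first Th1 array. The Pdia3 call against Th17 ended without the first Th17 array, and the Calr call against Th17 without the Th9 repeat or either Th17 array.

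In translocation and signal peptide removal, 1 of 5 tested members was higher in Th9 than in Th1, 2 were higher in Th9 than in Th17, and 1 was lower in Th17 than in Th1, against 5.85, 10 and 7.42% of all genes. Sec11c, a catalytic subunit of the signal peptidase, had levels of 9.19 and 9.09 in Th9, 8.68 and 8.60 in Th17, and 9.0 and 9.21 in Th1. Th17 was lowest without overlap, and Th9 and Th1 overlapped. Sec11c was higher in Th9 than in Th17 by 0.50 ± 0.11 (adjusted p = 0.0029) and lower in Th17 than in Th1 by -0.47 ± 0.11 on the log2 scale (adjusted p = 0.00671). Spcs1, another signal peptidase subunit, was higher in Th9 than in Th1 by 0.37 ± 0.11 (adjusted p = 0.0371), with levels of 11.88 and 12.06 in Th9, 11.61 and 11.72 in Th17, and 11.57 and 11.63 in Th1. Sec61b, a subunit of the import channel, was higher in Th9 than in Th17 by 0.32 ± 0.11 (adjusted p = 0.0416), and its 0.33 ± 0.11 against Th1 did not pass (adjusted p = 0.06). The levels of Sec61b were 9.17 and 9.18 in Th9, 8.92 and 8.78 in Th17, and 8.85 and 8.85 in Th1, so Th9 lay above both. The other kept probe of Sec61b gave 0.08 (adjusted p = 0.757) in Th9 against Th17, and that of Spcs1 gave 0.32 (adjusted p = 0.0792) in Th9 against Th1. Sec61a1, the channel's pore subunit, and Ssr1, of the translocon-associated complex, did not pass, and the Sec61a1 arrays of Th17 ranged from 7.73 to 8.18. The Spcs1 call and the Sec61b call each ended in most of the leave-one-array fits: Spcs1 without any 1 of the 6 arrays, Sec61b without any Th9 or Th17 array. The Th17 against Th1 call of Sec11c ended without the Th17 repeat or the Th1 repeat. It also ended with median scaling, with an offset of 16 and without background correction. Deposited Sec11c intensities overlapped, at 410.3 and 358.0 in Th17 and 415.3 and 407.8 in Th1.

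Of the 4 degradation genes, 1 was higher in Th9 than in Th1 and 1 in Th9 than in Th17, Syvn1 in both cases (5.85 and 10% of all genes). In Th17 against Th1, 0 passed, with 0 higher and 1 lower at an unadjusted limma p below 0.05. Syvn1 encodes HRD1, the ubiquitin ligase that marks misfolded proteins leaving the ER, and had levels of 10.35 and 10.46 in Th9, 10.03 and 9.92 in Th17, and 10.03 and 10.07 in Th1. The Th9 arrays lay above the rest, by 0.35 ± 0.11 against Th1 (adjusted p = 0.0419) and by 0.43 ± 0.11 against Th17 (adjusted p = 0.00756). Its partner Sel1l, which stabilizes the ligase, did not pass, with levels of 6.76 and 7.06 in Th9, 7.19 and 7.16 in Th17, and 7.08 and 7.10 in Th1, all Th9 values below the others. Herpud1, another component of the ligase complex, had levels of 10.47 and 10.63 in Th9, 10.23 and 10.74 in Th17, and 10.75 and 10.83 in Th1, and Edem1, which helps pick out misfolded glycoproteins, had values between 6.23 and 6.52. Neither gene passed, and Herpud1 differed by -0.24 ± 0.14 between Th9 and Th1 (adjusted p = 0.335). The Syvn1 call against Th1 held in 4 of 14 alternatives and ended when any 1 array was left out or the array number entered as a block. The Syvn1 call against Th17 ended without the Th9 repeat or the Th17 repeat.

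The members that passed with Th9 higher in both comparisons were therefore Hspa5, Hsp90b1, Sdf2l1, Creld2, Pdia3, P4hb, Calr, Syvn1 and Xbp1. These comparisons share the Th9 arrays, and 3.75% of all genes passed in this way. Without 1 array, 3 to 6 of the 9 remained, and without background correction 0 (limma). Th1 was lower than both other kinds for 2 members, Dnajb9 and Xbp1 (1.35% of all genes), and higher than both for Eif2ak3 (1.84%). Th17 was higher than both for Trib3 (4.71%) and lower than both for Sec11c, Atf4 and Asns (4.25%). The Th17 against Th1 calls of Eif2ak3, Sec11c, Atf4 and Asns ended with median scaling. In all, 18 of the 32 passed in at least 1 comparison, as did 26.2% of all genes. The Herpud1 promoter shows the shorter form of the stress element in capitals, from a gene of the list that passed in none of the comparisons.
Herpud1 (chr8:94386347-94386417, + strand): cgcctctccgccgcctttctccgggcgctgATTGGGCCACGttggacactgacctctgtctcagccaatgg

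**Figure D3:**
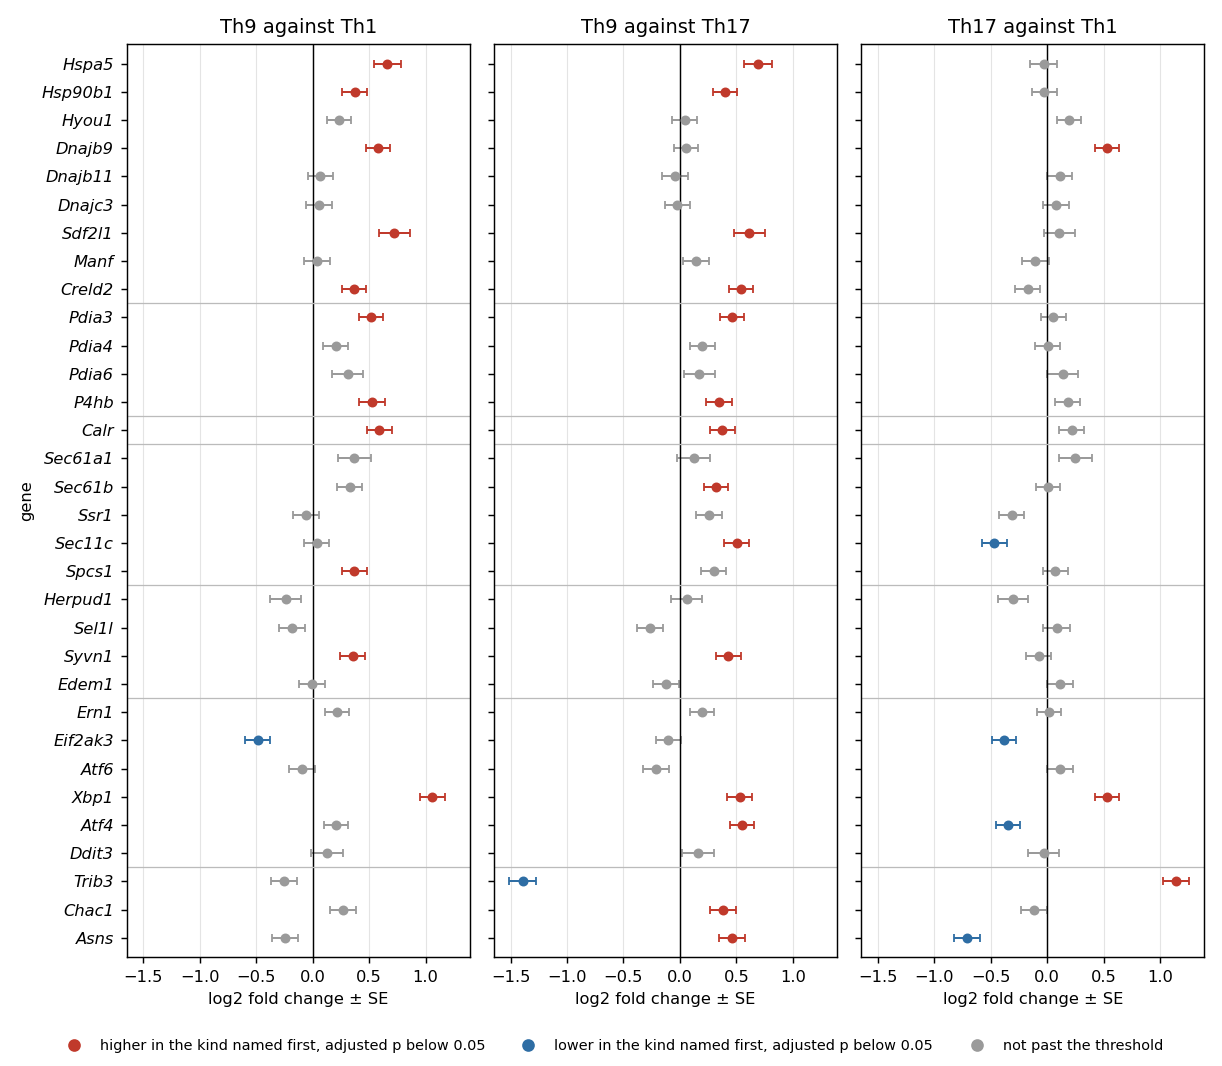
Log2 fold change ± standard error of the 32 tested members, grouped by role, from left to right for Th9 against Th1, for Th9 against Th17 and for Th17 against Th1 (n = 2 arrays each). Red marks members higher past an adjusted p of 0.05, blue lower and grey not past. The red points of the chaperones lie between 0.37 and 0.72 against Th1, and Trib3 stands at -1.39 and 1.14 in the comparisons with Th17.

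Of the 3 tested ATF4 targets, 2 were higher and 1 lower in Th9 than in Th17 (10 and 8.95% of all genes), and 1 was higher and 1 lower in Th17 than in Th1 (7.53 and 7.42%). Trib3, which encodes a pseudokinase that restrains ATF4 and AKT, had levels of 7.16 and 7.35 in Th9, 8.71 and 8.58 in Th17, and 7.60 and 7.42 in Th1. Th17 was above both other kinds without overlap. Trib3 was 2.63-fold lower in Th9 than in Th17, by -1.39 ± 0.12 on the log2 scale (adjusted p = 1.69e-08), and higher in Th17 than in Th1 by 1.14 ± 0.12, 2.2-fold (adjusted p = 5.46e-07). Both calls held in 14 of 14 alternatives, and the 2 other kept probes of Trib3 gave -0.52 (adjusted p = 0.00238) and -0.21 (adjusted p = 0.306) in Th9 against Th17. Asns, which makes asparagine, ran the other way, with levels of 8.49 and 8.67 in Th9, 8.19 and 8.05 in Th17, and 8.75 and 8.91 in Th1. The 3 kinds did not overlap for Asns, and Th17 was lowest. It was higher in Th9 than in Th17 by 0.46 ± 0.11 (adjusted p = 0.00625) and lower in Th17 than in Th1 by -0.71 ± 0.11 on the log2 scale, 1.64-fold (adjusted p = 0.000166). Another kept probe of Asns did not pass in these comparisons, at 0.15 and -0.32. Both Asns calls ended with median scaling and without background correction. Chac1, an enzyme that breaks down glutathione, had intensities of 27.8 and 46.9 in Th9, 6.1 and 19.4 in Th17, and 14.0 and 14.1 in Th1, near background, and was higher in Th9 than in Th17 by 0.38 ± 0.12 (adjusted p = 0.0258). That call ended without the Th9 repeat or the first Th17 array, and the Asns call in Th9 against Th17 without the Th9 repeat or the Th17 repeat. In Th9 against Th1, 0 of the 3 passed, while at an unadjusted limma p below 0.05 Chac1 was higher and Trib3 and Asns were lower.

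The stretch upstream of Asns is shown for the motif TGATG, any base, AA, an amino acid response element that ATF4 binds with partners. It was found in 4 of 28 members with a window (14.3%), Asns, Chac1, Herpud1 and Trib3, and in 1219 of 27025 genes (4.51%). Asns, Chac1 and Trib3 are on the list as ATF4 targets, so these shares are a description and no test. The capitals mark it in Asns and Chac1, where it reads on the gene's strand and on the opposite strand in turn, and Asns and Trib3 hold it although their levels in Th17 differed from Th1 in opposite directions.
Asns (chr6:7693210-7693262, - strand): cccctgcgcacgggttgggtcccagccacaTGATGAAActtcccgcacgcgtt
Chac1 (chr2:119351019-119351086, + strand): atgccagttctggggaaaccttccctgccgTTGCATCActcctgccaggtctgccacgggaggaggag

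Further genes of the same machinery, listed by function, were counted in the same fit. Of 19 tested genes of the translocon, signal peptidase and oligosaccharyl transferase, 4 were higher in Th9 than in Th1, 5 were higher in Th9 than in Th17 and 4 were higher in Th17 than in Th1, where 5.85, 10 and 7.53% of all genes were higher. None of the 19 was lower at the adjusted threshold, with 0, 2 and 2 lower at an unadjusted limma p below 0.05. Spcs3, another signal peptidase subunit, had levels of 9.72 and 9.97 in Th9, 8.67 and 8.55 in Th17, and 8.99 and 8.76 in Th1, with Th9 far above the others. Spcs3 was higher in Th9 by 0.98 ± 0.12 against Th1 (adjusted p = 7.55e-06) and by 1.24 ± 0.12 against Th17 (adjusted p = 1.61e-07). Ssr2, of the translocon-associated complex, was higher in Th9 by 0.51 (adjusted p = 0.00672) and 0.67 (adjusted p = 0.000268) against Th1 and Th17. Stt3b, a catalytic subunit that adds sugar chains, was higher against Th1 in Th9 by 0.58 (adjusted p = 0.000842) and in Th17 by 0.44 (adjusted p = 0.00731), and Ddost, of the same enzyme, was higher in Th9 than in Th17 by 0.51 (adjusted p = 0.00608).

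Of 22 other folding, glycan and disulphide genes, 4 were higher in Th9 than in Th1 and 4 in Th9 than in Th17, with medians of 0.16 and 0.14, where 5.85 and 10% of all genes were higher. In Th17 against Th1, 0 passed (limma, with 1 higher and 2 lower at an unadjusted p below 0.05). Dnajc10, a reductase with a J domain that works with BiP, had levels of 9.85 and 9.92 in Th9, 9.12 and 9.15 in Th17, and 9.11 and 9.11 in Th1. It was higher in Th9 by 0.78 ± 0.11 against Th1 (adjusted p = 2.87e-05) and by 0.75 ± 0.11 against Th17 (adjusted p = 2.39e-05), with the Th17 and Th1 arrays close together. Erp29, an ER protein of the disulphide isomerase family, was higher in Th9 by 0.42 and 0.43 (adjusted p = 0.0155 and 0.00708). Among the glucosidases that trim new sugar chains, Mogs was higher in Th9 by 0.57 against Th17 (adjusted p = 0.00122) and Ganab by 0.46 against Th1 (adjusted p = 0.0304). Prkcsh, the other subunit of Ganab's enzyme, was higher in Th9 by 0.36 against Th1 (adjusted p = 0.0416) and by 0.35 against Th17 (adjusted p = 0.0316).

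Of 20 tested genes of ER-associated degradation, 1 was higher in Th9 against Th17 and 1 in Th17 against Th1, where 10 and 7.53% of all genes were higher. With 20 genes, these counts lie near those shares. In Th9 against Th1 0 passed, with 2 higher and 0 lower at an unadjusted limma p below 0.05. Edem2, which trims sugars of misfolded glycoproteins, was higher in Th9 than in Th17 by 0.43 (adjusted p = 0.0164), and the ubiquitin-conjugating enzyme Ube2j1 was higher in Th17 than in Th1 by 0.38 (adjusted p = 0.0226). Of 18 sensors and regulators, 0 passed in Th9 against Th1 (limma, 1 higher and 2 lower at an unadjusted p below 0.05), 1 was higher and 2 lower in Th9 against Th17, and 3 were lower in Th17 against Th1 (10, 8.95 and 7.42% of all genes). Eif2ak2, the double-stranded RNA kinase PKR, was higher in Th9 than in Th17 by 0.53 (adjusted p = 0.0012) and lower in Th17 than in Th1 by -0.86 on the log2 scale (adjusted p = 9.75e-06). Eif2ak1, the kinase that answers lack of haem, was lower in Th9 than in Th17 by -0.55 (adjusted p = 0.00481), as was the adaptor Nck1 by -0.45 (adjusted p = 0.0438), and Casp12, an ER-associated caspase, was near background. Its intensities were 10 and -12.7 in Th17, with 1 of 2 arrays above background, and 13.0 and 14.4 in Th1, and the fitted difference of -0.39 (adjusted p = 0.0473) rests on these.

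Of 29 further ATF4 targets and integrated stress response genes, 4 had higher levels in Th9 than in Th1 and 1 had a lower level. In Th9 against Th17, 5 were higher and 2 lower, and in Th17 against Th1 4 were higher and 3 lower. These are 13.8 and 3.45, 17.2 and 6.90, and 13.8 and 10.3% of the list, where 5.85 and 4.85, 10 and 8.95, and 7.53 and 7.42% of all genes were higher and lower. Vldlr, a lipoprotein receptor induced by ATF4, had levels of 7.33 and 7.17 in Th9, 8.43 and 8.59 in Th17, and 7.16 and 7.02 in Th1. Vldlr differed by -1.26 ± 0.11 on the log2 scale in Th9 against Th17 (adjusted p = 5.67e-08) and was higher in Th17 than in Th1 by 1.42 ± 0.11 (adjusted p = 1.76e-08), with Th17 apart as for Trib3. Phgdh, the entry enzyme of serine synthesis, had levels of 7.83 and 7.71 in Th9, 7.39 and 7.22 in Th17, and 8.08 and 7.94 in Th1, so Th17 was lowest as for Asns. It was higher in Th9 than in Th17 by 0.46 (adjusted p = 0.00553) and lower in Th17 than in Th1 by -0.70 on the log2 scale (adjusted p = 0.000157). The stress factor Atf3 was near background, with intensities of 37.6 and 21.8 in Th9, -2.4 and 0.1 in Th17, and 8.9 and 0.9 in Th1. It was at least 1.32-fold higher in Th9 than in Th17, where it was above background on 0 arrays (adjusted p = 0.00211), and higher in Th9 than in Th1 by 0.42 (adjusted p = 0.0335), where 1 of 2 arrays was above background. Ddit4, an inhibitor of mTOR signalling, differed by -0.40 in Th9 against Th17 (adjusted p = 0.0166) and was higher in Th17 than in Th1 by 0.55 (adjusted p = 0.00175).

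**Figure D4:**
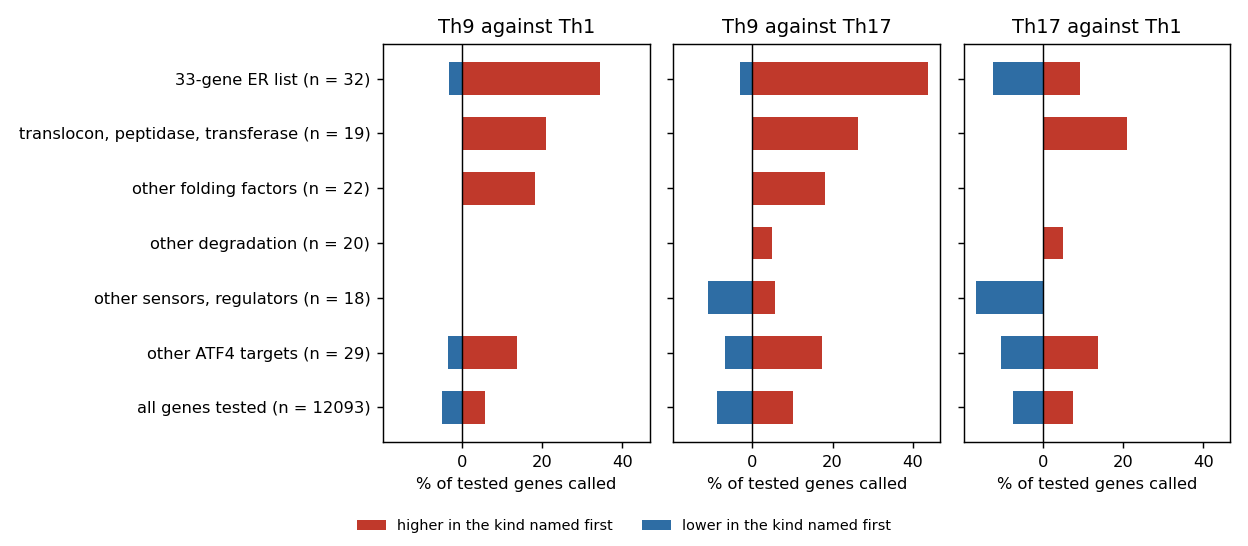
Percent of tested genes past an adjusted p of 0.05, higher and lower, for the 32 members, the 5 other pathway lists and all 12093 genes, in each comparison. Members reach 34.4 and 43.8% higher in Th9 against Th1 and against Th17, where all genes reach 5.85 and 10%. The lists were chosen with earlier results of these data known, so the shares are a description.

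Some markers of other cells moved with the same comparisons. Of 12 listed B cell genes, 10 are on the array and 6 were tested. Of these, 1 was higher in Th9 than in Th1, 2 were higher in Th9 than in Th17 and 3 were lower in Th17 than in Th1. The shares of all genes were 5.85, 10 and 7.42%. Their summed intensity was 396.9 and 437.6 in Th9, 118.6 and 111.0 in Th17, and 247.4 and 235.6 in Th1. Of 9 plasma cell genes 7 were tested, with 3 higher and 1 lower in Th9 than in each of the others and 3 lower in Th17 than in Th1. Of all genes, 5.85% were higher and 4.85% lower against Th1, 10 and 8.95% against Th17, and 7.42% lower in Th17 against Th1. The sums were 2572.4 and 3228.2 in Th9, 1340.0 and 1266.0 in Th17, and 2330.3 and 2139.6 in Th1. The light chain Igkc was higher in Th9 than in Th17 by 3.59 ± 0.12 (adjusted p = 3.22e-14) and did not pass against Th1 (0.16 ± 0.12, adjusted p = 0.489). Ighm went the other way, at -0.52 ± 0.12 against Th1 (adjusted p = 0.0048) and -0.57 ± 0.12 against Th17 (adjusted p = 0.00113). Iglv1 was higher in Th9 by 0.44 against Th1 (adjusted p = 0.0118) and by 2.78 against Th17. Pou2af1 was higher against Th1 by 0.41 (adjusted p = 0.0161) and did not pass against Th17. Mzb1, an ER protein of B and plasma cells, was higher in Th9 by 0.63 ± 0.11 against Th1 (adjusted p = 0.000604) and by 1.83 against Th17, and Cd79b, of the B cell receptor, by 0.45 (adjusted p = 0.00931) and 1.55. Cd72, a B cell surface protein, was higher in Th9 than in Th17 by 0.62 (adjusted p = 0.00162). Blk and Cd22 were above background on both Th9 arrays and on 0 Th17 arrays, and Fcer2a on all 6 arrays. Ebf1 did not pass, at -0.16 in Th9 against Th1 and 0.13 in Th9 against Th17. Blk was at -0.08 in Th9 against Th1 and did not pass there. The plasma cell markers Jchain, Sdc1 and Tnfrsf17 and the B cell markers Pax5, Ms4a1, Blnk and Cr2 were above background on 0 Th9 arrays. Their part in the results on the ER genes was not tested.

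The erythroid genes Hba-a1 and Hbb-b1 were also higher in Th9 than in Th1 and than in Th17, Hba-a1 with intensities of 544.2 and 582.6 in Th9, 27.3 and 24.4 in Th17, and 11.4 and 11.9 in Th1. Of 12 erythroid genes 7 are on the array and 5 were tested, so these calls are 2 of 5, where 5.85 and 10% of all genes were higher. Summed intensities were 2348.4 and 2710.7 in Th9, 2015.2 and 1762.3 in Th17, and 1733.8 and 1514.1 in Th1, mostly from the transferrin receptor Tfrc. Hbb-b2 and Alas2 were above background on 0 arrays. The tested erythroid genes Slc4a1, Klf1 and Tfrc did not pass in either Th9 comparison. Slc4a1 was at -0.11 against Th1 and -0.23 against Th17, Klf1 at 0.13 and -0.06, and Tfrc at 0.02 and 0.24. Of 12 myeloid genes 7 were tested, and 1, Adgre1, was higher in Th9 than in either other kind (5.85 and 10% of all genes). The sums were 515.7 and 425.3 in Th9, 494.1 and 463.6 in Th17, and 432.4 and 326.3 in Th1. Lyz2, Fcer1g and Siglech were above background on all 6 arrays, Csf1r and Csf3r on 5, Tyrobp on 2, and Itgam, Cd14, Fcgr3, S100a8 and S100a9 on 0. All 9 T helper genes on the array were above background on every array, with sums of 21034.3 and 22811.2 in Th9, 30678.8 and 29052.4 in Th17, and 23111.1 and 18841.6 in Th1. In Th9 against Th1, 2 of the 9 were higher and 0 lower (5.85 and 4.85% of all genes). In Th9 against Th17, 1 was higher and 4 were lower (10 and 8.95%). In Th17 against Th1, 4 were higher and 1 was lower (7.53 and 7.42%). The part of these cell markers in the results was not tested.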

How the data were processed

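RNA of 6 samples, 2 each of Th9, Th17 and Th1, was measured on Illumina bead arrays. The values are linear intensities deposited by the authors, and fall below 0 on every array, as after background subtraction. The submitters' own background and scaling steps, and the software, are not given in the sources used here. A second table of the authors has 6 columns of signal and 6 of detection values with names that fit none of the labelled samples, so it was not used. The design foresaw neqc with detection p-values, and its stated fallback was followed.

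Intensities were background corrected by normexp (offset 50), quantile normalized and taken to log2 with limma 3.58.1 in R 4.3.3. A probe was above background when it exceeded 1.64 times the root mean square of that array's negative values (the 0.95 normal quantile), and was kept if so on at least 2 arrays (22460 of 45281). Probes were named through gene identifiers (28620), accessions (2637), symbols (2128) or synonyms (2343), with 56 symbols kept as given and 9497 not listed. Each of 12093 genes was read from its kept probe of highest mean level. Of 17 other kept probes of members, in 51 comparisons, neither probe passed in 34, both passed the same way in 4, in 10 only the probe used passed, in 3 only the other probe passed and in 0 they passed in opposite directions. These counts set p-values adjusted over 18614 probes, for the other probes, beside p-values adjusted over 12093 genes, for the probes used. An at-least fold sets the mean of the brighter kind over the lowest level above background on each array of the other. The model had 3 residual and 16.2 prior degrees of freedom.

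The members and gene lists were chosen with earlier results of these data known. All members were described, and of each other list up to 4 genes past the threshold with the largest change. Prkcsh was named beyond this rule. Simulated differences of 0.5 log2 were recovered in 81, 78 and 76% of cases for Th9 against Th1, for Th9 against Th17 and for Th17 against Th1 (12093 genes, no background step simulated). The noise was drawn independently for each array from the fit's own variance, and normalization was not simulated. These shares therefore do not cover the calls lost under other settings. Promoter windows are RefSeq's of GRCm38.p6, with 5 members not covered. Alternatives changed the background correction, offset, scaling, filter, probe summary, variance trend, block and arrays fitted. Arrays number 6, which limits the precision.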

Additional observations from a re-analysis of the deposited data

How the results depend on the processing

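Of 476 alternative values of called members, 356 kept the call, 120 lost it in the same direction and 0 reversed. Of 867 values not called, 17 gained a call and 52 changed sign without one. Without background correction the genes past the threshold numbered 237 in Th9 against Th1, 674 in Th9 against Th17 and 315 in Th17 against Th1 (as reported 1295, 2296 and 1807, limma). The members higher were then 1, 0 and 1 and those lower in Th17 against Th1 0, with the cause not tested. With an offset of 16, genes numbered 729 in Th9 against Th1 and 1114 in Th17 against Th1, members higher were 5 in Th9 against Th1 and 6 in Th9 against Th17, and members lower 2 in Th17 against Th1. With arrays scaled to their median, 2733 genes passed in Th17 against Th1, with 9 members higher and 0 lower, and 5 members were higher in Th9 against Th17, where all genes split into 699 higher and 924 lower (as reported 1214 and 1082). The cause of these differences was not tested. Leaving out 1 array at a time, which leaves a lone array assumed to vary like the rest, gave 751 to 1147 genes in Th9 against Th1, 1433 to 2549 in Th9 against Th17 and 1005 to 1716 in Th17 against Th1. Members higher were then 7 to 8, 6 to 14 and 3 to 3, and members lower 1 to 1, 1 to 2 and 1 to 4. The fewest higher against Th17 came without the Th9 repeat (6), and the fewest lower in Th17 against Th1 without the Th1 repeat (1). Of the 9 members higher in Th9 than both others, 0 remained without background correction (limma), 3 with an offset of 16 and 3 to 6 without 1 array. With median scaling 3 of the 9 remained (Hspa5, Sdf2l1 and Creld2) and Atf4 was added. Repeats did not pair across kinds (correlations of deviations -0.02, -0.02 and 0.01). With the array number as a replicate block, 1258, 2249 and 1769 genes passed, members higher were 10, 14 and 3 and lower 1, 1 and 4, and 1 call ended, Syvn1 in Th9 against Th1. Signals near background limit Hyou1, Eif2ak3, Atf6, Chac1, Casp12 and Atf3.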

Other observations

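Outside the list, 29 further genes hold the ER stress response element in their promoter window, and 7 of them were tested. Of these, 1 passed in Th9 against Th1, as higher, and 0 passed in Th9 against Th17 (limma, with 1 higher and 1 lower at an unadjusted p below 0.05). Alg12, a mannosyltransferase that builds the sugar chain added to new ER proteins, was higher in Th9 than in Th1 by 0.36 ± 0.11 (adjusted p = 0.0364), with intensities of 240.3 and 292.0 in Th9, 230.1 and 203.4 in Th17, and 152.3 and 132.1 in Th1. It was chosen after its values were seen. Ero1b, an oxidase that recharges the disulphide isomerases, was not past the threshold at 0.17 ± 0.12 against Th1 and 0.19 ± 0.12 against Th17. The 7 log2 fold changes lay between -0.13 (Pan2) and 0.36 (Alg12) against Th1 and between -0.30 (Pan2) and 0.30 (Alg12) against Th17. Other kept probes passed where the probe used did not for Ssr1, at 0.58 in Th9 against Th17 (adjusted p = 0.00203) and -0.55 in Th17 against Th1 (adjusted p = 0.00452), and for Ddit3, at 0.49 in Th9 against Th17 (adjusted p = 0.00524).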
